A study of Bos taurus
Mus musculus and Bos taurus and Mus musculus with 5 samples.

Results

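Bovine transcripts of heterokaryons sorted 72 h after fusion were compared with those of the unfused bovine fetal fibroblasts (bFF) that supplied the bovine nuclei. Transcripts were summed by gene name and scaled to the bovine total of each library, as reads in each 1000000 (CPM). Of the 13923 bovine genes listed, 6956 reached 10 CPM in at least 1 of these libraries and form the comparison, 5683 of them in both libraries, 480 at 72 h alone and 793 in bFF alone. For genes at 10 CPM in only 1 library the filter fixed the direction of the difference, also within the gene lists below. The fibroblasts came from 1 male fetus of about gestation day 60 and were grown at 38.5 °C with 10% serum, and the 72 h library held cells made from them by fusion with C57BL mouse embryonic stem cells (mESC). Before fusion the stem cells had been kept on irradiated mouse feeder cells with LIF at 1500 U/ml, 1 µM of the MEK inhibitor PD0325901 and 3 µM of the GSK3 inhibitor CHIR99021. Both kinds of cell shared a culture for 4 h, were fused in polyethylene glycol for 2 min and were then held at 37 °C in stem cell medium with 15% serum and LIF and without these inhibitors. The 72 h cells therefore differed from bFF in fusion, medium, temperature, time in culture and company at once, and effects of these cannot be told apart. Each group was 1 library of 200 cells, so no difference given here has a replicate check, and heterokaryons at 24 and 48 h and unfused mESC, also 1 library each, are given beside it.

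A heterokaryon is a fused cell that keeps the nuclei of its parents separate in a shared cytoplasm, so each nucleus is exposed to the proteins of the other cell. Fibroblasts make the collagens, proteoglycans and growth factors of connective tissue and depend on serum for division. Embryonic stem cells divide rapidly, take much of their energy from glycolysis and express a set of transcription factors, among them OCT4, SOX2 and NANOG, that can reprogram somatic nuclei.

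Bovine reads numbered 2634269 in the bFF library and 1541793 in the 72 h library, with 982769 at 24 h and 1331989 at 48 h, so that 1 read was worth 0.380 CPM in bFF and 0.649 CPM at 72 h. At 72 h the bovine share of all assigned reads was 45.6% (exact binomial interval at 95%, 45.59 to 45.69). Of the mESC reads 1.74% were listed as bovine, and scaled to the 72 h library such reads would make up 2.11% of its bovine total. Of 10 fibroblast markers, 9 reached 10 CPM, and the summed level of all 10 was 37618 CPM in bFF and 18488, 20918 and 20470 CPM at 24, 48 and 72 h. PDGFRB was the exception, with 2 reads in bFF and 4 at 72 h. The defining blood markers PTPRC and TYROBP had 0 reads in bFF and in all 3 heterokaryon libraries. The endothelial markers CDH5 and KDR also had 0, while EGFL7 had 5 reads in bFF and 6, 3 and 6 reads at 24, 48 and 72 h. Of the 10 endothelial markers 3 had reads in bFF and 2 at 72 h. Their summed level was 7.59 CPM in bFF and 32.6, 6.76 and 5.84 CPM at 24, 48 and 72 h. Members other than EGFL7 held most of it in bFF and at 24 h. The muscle markers MYOD1 and MYOG had 0 reads throughout, but ACTC1 had 190 reads in bFF and 3, 8 and 11 reads at 24, 48 and 72 h, MYF6 3 reads in bFF and 10, 10 and 5 reads at 24, 48 and 72 h and DES 8 reads in bFF alone. The summed muscle markers were 77.8 CPM in bFF and 24.4, 26.3 and 49.3 CPM at 24, 48 and 72 h. The epithelial markers KRT8 and KRT18 were present in bFF, and KRT5 and KRT14 had 0 reads there. CDH1 had 20 reads in bFF and 6, 3 and 3 reads at 24, 48 and 72 h, and EPCAM 3 reads in bFF and 23, 2 and 0 reads at 24, 48 and 72 h. The summed epithelial markers were 1866 CPM in bFF and 719, 633 and 368 CPM at 24, 48 and 72 h. The summed blood markers were 0.759 CPM in bFF and 97.7, 66.8 and 51.9 CPM at 24, 48 and 72 h. The summed neural markers were 74 CPM in bFF and 164, 178 and 209 CPM after fusion. The part of these marker lists in the differences was not tested. In bulk RNA fewer cells of a type and less RNA per cell cannot be told apart.

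At 72 h, 184 genes (2.65% of the 6956) were 4-fold or more higher than in bFF and 363 (5.22%) were 4-fold or more lower, 7.86% in all, on the log2(CPM + 1) scale. This scale understates differences of low genes, so the folds printed are ratios of CPM, each with its 95% counting interval in parentheses. The interval lay wholly above 4-fold for 89 of the 168 higher genes with reads in bFF, and for 162 of the 363 lower genes the whole interval was more than 4-fold lower. PCR copies are not independent molecules, so intervals and floors cover counting error only. Most genes were close to their fibroblast level, with 4917 (70.7%) within 2-fold, 487 between 2-fold and 4-fold higher and 1005 between 2-fold and 4-fold lower. The median log2 difference of all 6956 genes was -0.22. Scaling by trimmed means of M values (TMM) set that median to -0.05 and gave 223 higher and 298 lower genes, so the higher genes were 42.8% of calls in place of 33.6%. Just inside the limit were ACKR4 and BMP4 (log2 difference 2.01 and 2.02) and TRPM7 and RBM48 (-2.0 and -2.01), and just outside it were ITPR3 and UBE2S (both 2.0) and LAMP1 and GLMP (both -1.99). Counts within the gene lists below are to be read beside the 2.65% higher and 5.22% lower of all 6956 genes.

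**Figure D1:**
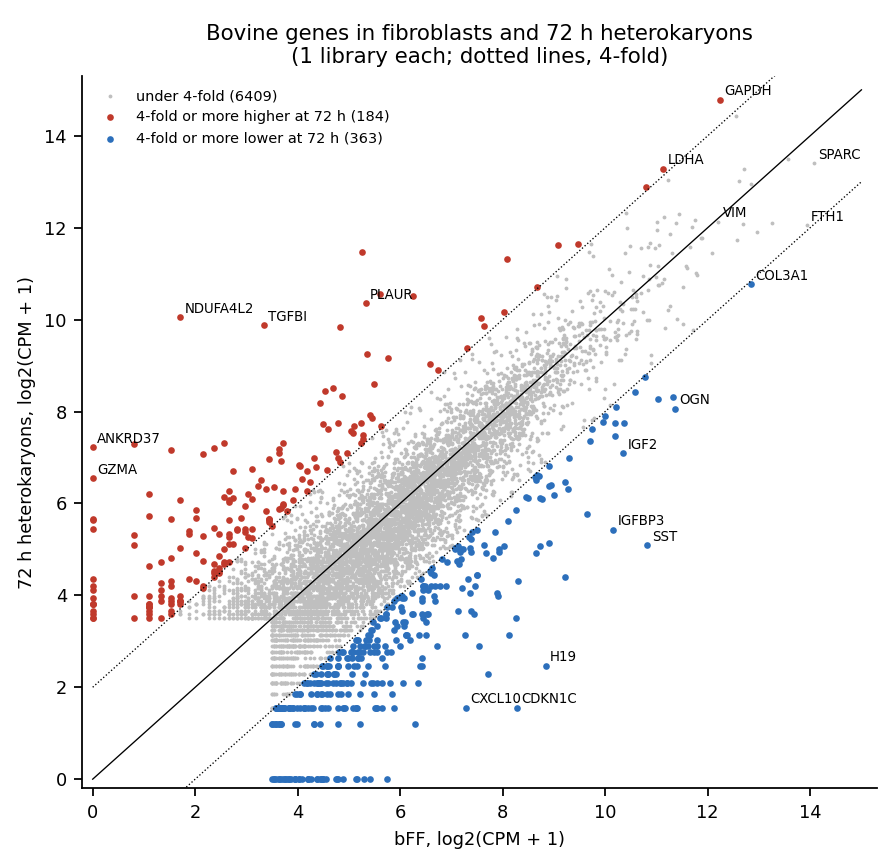
Each point is 1 of the 6956 genes, with its bFF level on the horizontal axis and its 72 h level on the vertical axis, both as log2(CPM + 1), and dotted lines mark 4-fold. The 184 red genes lie above the upper line and the 363 blue genes below the lower one, and points on an axis at 0 had no reads in that library.

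The gene farthest above its fibroblast level was NDUFA4L2, a mitochondrial protein gene induced by low oxygen (chromosome 5, plus strand, start 56537021 in bosTau8). It had 6 reads in bFF and 485, 1478 and 1641 reads at 24, 48 and 72 h, or 2.28, 494, 1109.6 and 1064 CPM, and stood 467-fold (214 to 1275) above bFF. The level at 48 h was thus as high as that at 72 h, and all 3 heterokaryon libraries lay far above bFF. NDUFA4L2 belongs to a list of low-oxygen response genes outside glycolysis, of which 28 reached 10 CPM, 7 were 4-fold or more higher and 0 lower, with a median log2 difference of 0.99. ANKRD37, an ankyrin repeat gene of the same response, had 0 reads in bFF and 103, 121 and 228 reads at 24, 48 and 72 h. At 72 h it was at least 129.9-fold higher than bFF when the 0 reads there are set to a floor of 3 reads. BNIP3, a receptor for the removal of mitochondria, measured 47.5 CPM in bFF and 962, 1161 and 1502 CPM at 24, 48 and 72 h, a ratio of 31.6-fold (26.4 to 38.2). DDIT4, an inhibitor of the growth kinase mTORC1, measured 20.5 CPM in bFF and 201, 246 and 289.9 CPM at 24, 48 and 72 h and was 14.1-fold (10.6 to 19.1) its bFF level. ANKRD37, BNIP3 and DDIT4 were highest at 72 h among the 4 libraries. The oxidase ERO1A, which drives disulphide bond formation, was 8.81-fold (7.2 to 10.9) higher, the lipase inhibitor ANGPTL4 7.44-fold (4.12 to 14.4) and the oxygen-sensing prolyl hydroxylase EGLN3 6.19-fold (2.76 to 15.7). The transcription factor gene HIF1A itself stood at 150.3 CPM in bFF and 158 CPM at 72 h, and the angiogenic ligand VEGFA at 17.8 CPM in bFF and 42.2 CPM at 72 h, with a ratio of 2.36-fold (1.6 to 3.52). ADM, a vasodilator peptide gene often counted in this response, was close to its bFF level at 72 h, with 105 CPM in bFF and 113, 45.8 and 109 CPM at 24, 48 and 72 h. In the list 25 of 28 genes were above 0 and 3 below, so its members differed widely in size but seldom in sign.

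Genes of glucose breakdown were higher in part. All 16 listed glycolytic enzyme genes in the table reached 10 CPM, 7 of them were 4-fold or more higher and 0 lower, the median log2 difference was 1.92, and TMM scaling took the count to 10. Their summed level was 12827 CPM in bFF and 52065, 56988 and 60329 CPM at 24, 48 and 72 h. PGK1, the first enzyme of the pathway to yield ATP, measured 272 CPM in bFF and 1795, 2484 and 2554 CPM at 24, 48 and 72 h and was 9.38-fold (8.66 to 10.2) its fibroblast level. GAPDH, which produces the substrate of PGK1, was the gene with the most reads at 72 h and measured 4817 CPM in bFF and 22151, 25804 and 28271 CPM at 24, 48 and 72 h, a ratio of 5.87-fold (5.75 to 5.99). Copies of GAPDH elsewhere in the genome make its read assignment uncertain. The mutase PGAM1 was 5.77-fold (5.43 to 6.12) higher, the isomerase GPI 5.54-fold (5.01 to 6.13) and the lactate-forming dehydrogenase LDHA 4.45-fold (4.31 to 4.58). Just under the limit were aldolase ALDOA at 3.8-fold (3.62 to 4.0), enolase ENO1 at 3.77-fold (3.63 to 3.93) and pyruvate kinase PKM at 3.43-fold (3.26 to 3.61). LDHB, the dehydrogenase subunit that favours the reverse reaction, measured 866 CPM in bFF and 650.2, 671 and 649 CPM at 24, 48 and 72 h and was among 3 listed genes below 0.

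Transport of the substrate and of the product stood out in the same way. Of 10 genes of glucose and lactate transport and flux control at 10 CPM, 4 were 4-fold or more higher and 0 lower (median 1.66). The glucose transporter SLC2A3 measured 27.3 CPM in bFF and 550.5, 794 and 909 CPM at 24, 48 and 72 h and was 33.3-fold (26.2 to 42.8) its bFF level, and the transporter SLC2A1 was 31.9-fold (18.3 to 60.8). The lactate exporter SLC16A3 had 0 reads in bFF and 43, 52 and 77 reads at 24, 48 and 72 h, at least 43.9-fold higher at 72 h. PFKFB3, which makes an activator of phosphofructokinase, had 0 reads in bFF and 32, 34 and 27 reads at 24, 48 and 72 h and was at least 15.4-fold higher. Both genes had reads in all 3 heterokaryon libraries and none in bFF. In contrast, 0 of 75 nuclear genes of the respiratory chain passed 4-fold in either direction, with log2 differences from -1.13 to 1.53 and a median of 0.08.

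**Figure D2:**
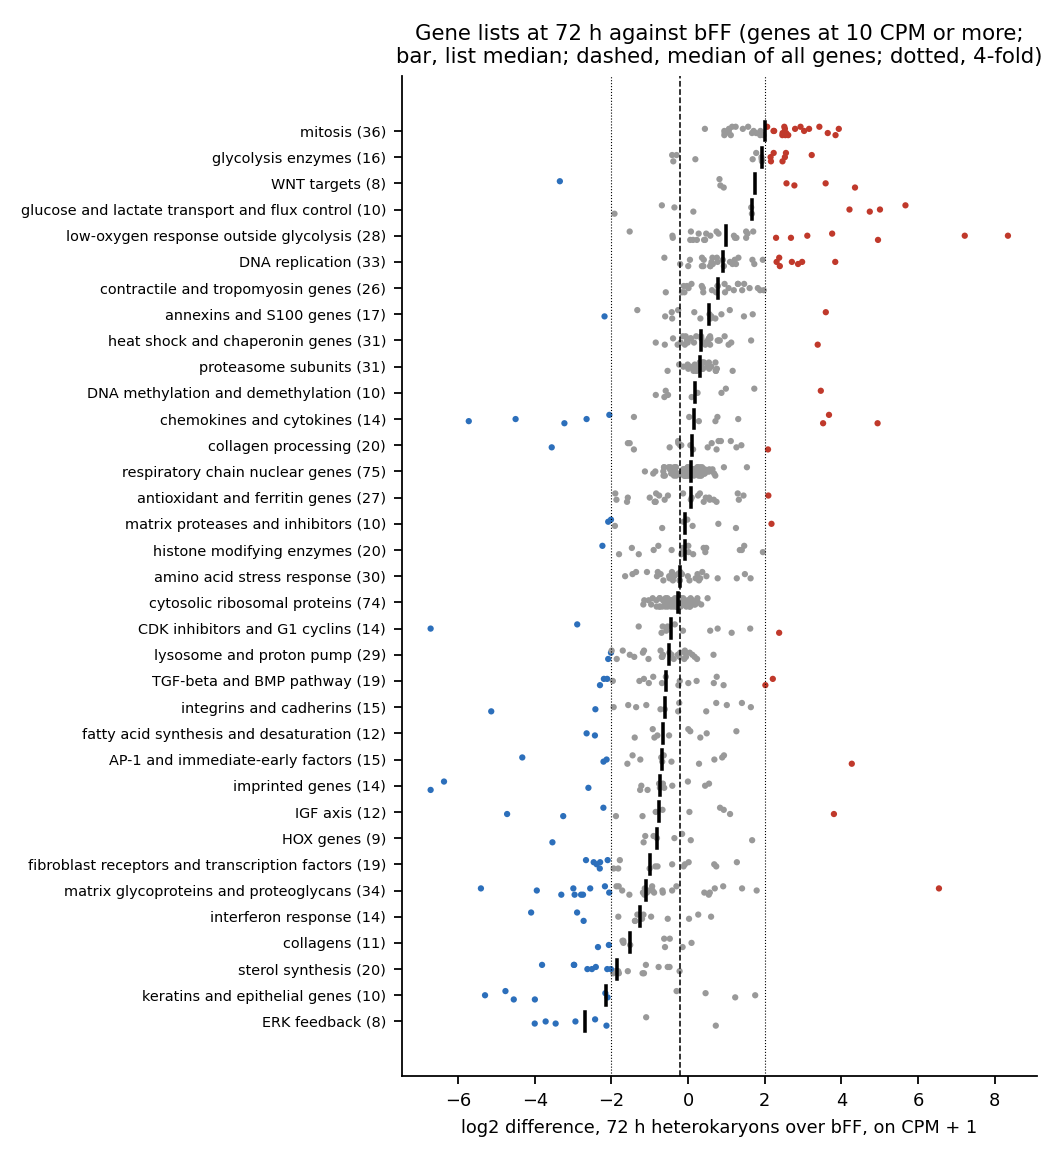
Each row is 1 of 35 gene lists with 8 or more members at 10 CPM (number in parentheses), with marker lists, lists made after their values were seen and 1 other list not plotted, each point is a gene, placed by its log2 difference between 72 h and bFF on CPM + 1, and the black bar is the list median. Mitosis (2.01) and glycolysis enzymes (1.92) have the highest medians and ERK feedback (-2.68) the lowest of those plotted, against -0.22 for all genes (dashed line).

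Genes of mitosis formed the list with the highest median of those plotted. Its 36 members at 10 CPM were all above 0, 18 were 4-fold or more higher and 0 lower, and the median was 2.01. The summed level of the list was 890.2 CPM in bFF and 2515, 3721 and 3873 CPM at 24, 48 and 72 h. BIRC5, which encodes the survivin subunit of the chromosomal passenger complex, measured 22 CPM in bFF and 103, 292 and 350.2 CPM at 24, 48 and 72 h and was 15.9-fold (12.1 to 21.2) its bFF level. MYBL2, a transcription factor of cycling cells, had 8 reads in bFF and 18, 70 and 88 reads at 24, 48 and 72 h, a ratio of 18.8-fold (9.13 to 44.9). The cytokinesis motor KIF20A was 14-fold (8.78 to 23.5) and the spindle checkpoint kinase BUB1 12.6-fold (7.16 to 23.8). The mitotic kinase CDK1 measured 11.4 CPM in bFF and 39.7, 30.0 and 57.7 CPM at 24, 48 and 72 h, so that its 24 and 48 h levels lay between those of bFF and of 72 h. Its partner cyclins CCNA2 and CCNB2 were 6.3-fold (4.23 to 9.63) and 6.04-fold (4.31 to 8.6) their bFF levels, and CDC20, an activator of the anaphase-promoting complex, 8.34-fold (5.39 to 13.4).

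Of 33 DNA replication genes at 10 CPM, 7 were 4-fold or more higher, 0 were lower and 31 lay above 0, with a median of 0.91. RRM2, the small subunit of ribonucleotide reductase, measured 24.7 CPM in bFF and 208, 198 and 366 CPM at 24, 48 and 72 h and was 14.9-fold (11.5 to 19.5) its bFF level. The replicative helicase subunits MCM5 and MCM4 were 9.15-fold (5.13 to 17.5) and 8.69-fold (4.63 to 17.7). MCM4 varied between the heterokaryon libraries, with 12 reads in bFF and 50, 18 and 61 reads at 24, 48 and 72 h. The polymerase alpha subunit POLA2 had 3 reads in bFF and 20 at 72 h, and its ratio was 11.4-fold (3.38 to 59.9). Thymidine kinase TK1 was 5.49-fold (3.78 to 8.12), the dUTP-cleaving enzyme DUT 5.35-fold (4.32 to 6.68) and the origin-firing factor CDC45 5.9-fold (2.96 to 12.8).

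Regulators of entry into the cell cycle did not share a direction. Among 14 inhibitors of cyclin-dependent kinases and G1 cyclin genes 1 was 4-fold or more higher and 2 lower (median -0.44). The lower genes, CDKN1C and CDKN2C, reached 10 CPM in bFF alone, so for them the filter fixed the direction. CDKN1C, the imprinted inhibitor p57, had 814 reads in bFF and 4, 4 and 3 reads at 24, 48 and 72 h, which is 159-fold lower (54.1 to 772) at 72 h. Estimated mouse reads would be 53.3% of its 3 reads at 72 h. The inhibitor CDKN2C measured 20.9 CPM in bFF and 7.12, 8.26 and 1.95 CPM at 24, 48 and 72 h and was 10.7-fold lower (3.48 to 53.6). CDKN2D, an inhibitor of the same family, was on the other side at 25.8 CPM in bFF and 58, 96.1 and 138 CPM at 24, 48 and 72 h, a ratio of 5.35-fold (4.06 to 7.14). The G1 cyclin CCND1 was 2.21-fold (1.91 to 2.56) its bFF level and the inhibitor CDKN1A had a log2 difference of -0.69.

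PLAUR, the urokinase receptor, which directs protein breakdown to the cell surface, was among the genes farthest above bFF. It measured 39.1 CPM in bFF and 1698, 1333 and 1309 CPM at 24, 48 and 72 h, a ratio of 33.5-fold (27.5 to 41.2), and was highest at 24 h. Urokinase itself, PLAU, stood at 30.0 CPM in bFF and 18.2 CPM at 72 h, and the protease inhibitor SERPINE2 was 2.89-fold (2.64 to 3.15) its bFF level.

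TGFBI, a known target of transforming growth factor beta that encodes a secreted adhesion protein, measured 9.11 CPM in bFF and 374, 764 and 943 CPM at 24, 48 and 72 h and was 104-fold (69.3 to 162) its bFF level. Of 19 genes of the TGF-beta and BMP pathway itself 2 were 4-fold or more higher and 3 lower, with a median of -0.58. Over all 6956 genes 2.65% were higher and 5.22% lower. The activin subunit INHBA (9.87 CPM in bFF and 49.3 CPM at 72 h) and the ligand BMP4 were on the higher side with log2 differences of 2.21 and 2.02. On the lower side were the activin antagonist FST (-2.20), the latency-binding protein LTBP3 (-2.30) and the corepressor TGIF1 (-2.11), the last not past 4-fold with TMM scaling. The receptor TGFBR2, at -1.96, did not pass 4-fold.

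**Figure D3:**
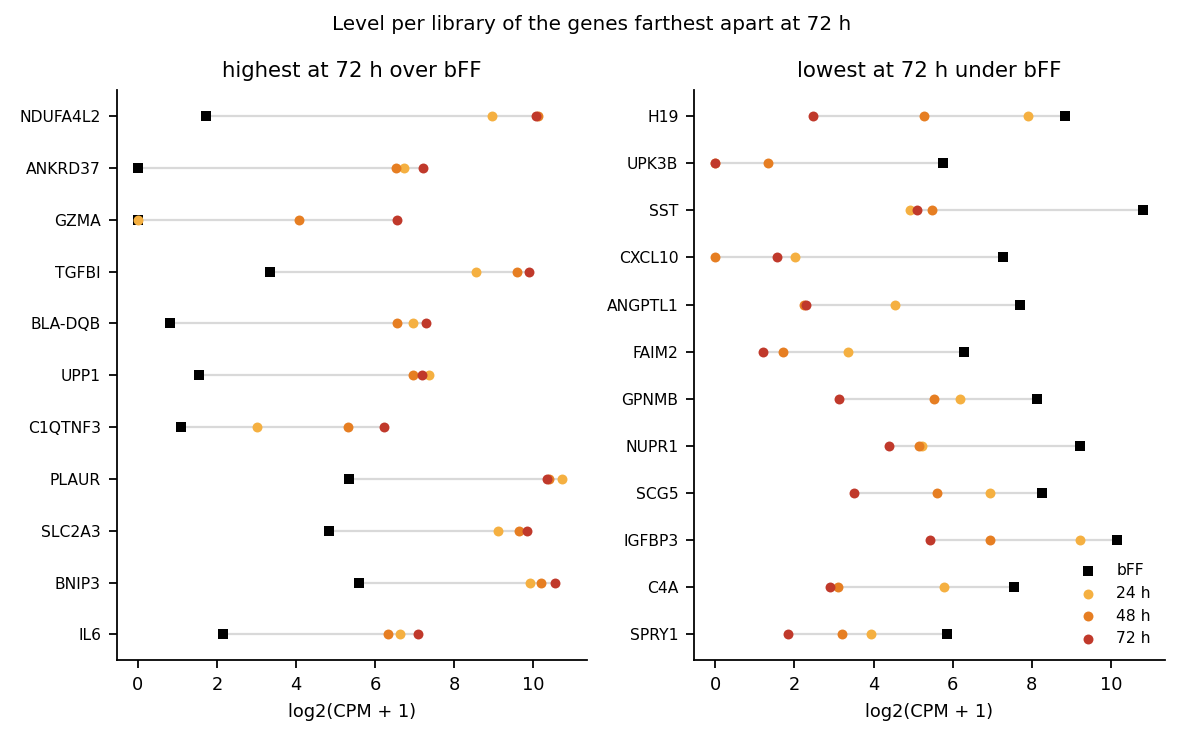
Levels as log2(CPM + 1) in bFF (black squares) and at 24, 48 and 72 h (circles from light to dark) of 11 genes among the 12 farthest above and of the 12 farthest below bFF at 72 h, among genes at 50 CPM or more in bFF or at 72 h with at most 10% estimated mouse reads. In all of the genes plotted the black square lies at the low or the high end, and it is shared with the 24 h circle for GZMA, which had 0 reads in both.

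Part of the matrix genes were lower. Of 34 matrix glycoproteins and proteoglycans at 10 CPM 10 were 4-fold or more lower, TGFBI was the 1 higher gene and 26 lay below 0, where 4222 of all 6956 genes also lay, with a median of -1.10. OGN, a small leucine-rich proteoglycan, measured 2636 CPM in bFF and 772, 352 and 265 CPM at 24, 48 and 72 h and was 9.94-fold lower (8.99 to 11) at 72 h. ASPN, of the same family, measured 2079 CPM in bFF and 354, 368 and 310.0 CPM at 24, 48 and 72 h and was 6.71-fold lower (6.11 to 7.38). The matrilin MATN2 was the lowest of the list with 109 reads in bFF and 11, 8 and 0 reads at 24, 48 and 72 h, at least 21.3-fold lower. Fibulin FBLN1 was 5.93-fold lower (4.94 to 7.17). The most abundant proteoglycan transcript, decorin (DCN), measured 9753 CPM in bFF and 3982, 4429 and 4424 CPM at 24, 48 and 72 h, and lumican (LUM) 3062 CPM in bFF and 1215, 2089 and 2293 CPM at 24, 48 and 72 h, so neither passed the limit. SPARC, a collagen-binding glycoprotein and the gene with the most bFF reads, was 1.59-fold lower (1.56 to 1.62).

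Of 11 collagen genes 2 were 4-fold or more lower and 10 lay below 0 (median -1.51). COL3A1 measured 7349 CPM in bFF and 3451, 2616 and 1753 CPM at 24, 48 and 72 h and was 4.19-fold lower (4.03 to 4.37), and with TMM scaling it stayed under 4-fold. COL11A1 was 5.13-fold lower (4.5 to 5.87). The main fibrillar chains COL1A1 and COL1A2 were 1.54-fold lower (1.49 to 1.6) and 1.52-fold lower (1.48 to 1.56), so the collagens did not share the same size of difference. Among 20 collagen processing genes the crosslinking enzyme LOXL2 was higher (log2 difference 2.08), the prolyl hydroxylase P4HA3 lower (-3.56) and the median 0.09. The prolyl hydroxylases P4HA1 and P4HA2 stood on the other side of 0 from P4HA3, at 1.74-fold (1.59 to 1.9) and 1.67-fold (1.54 to 1.83) their bFF levels. Of 10 matrix proteases and their inhibitors ADAMTS9 was higher (2.18), the cathepsins CTSK (-2.01) and CTSB (-2.08) were lower and lost the call with TMM scaling, and the median was -0.07 and turned to 0.09 with it.

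Surface receptors and transcription factors of fibroblasts were lower in part. Of 19 at 10 CPM 6 were 4-fold or more lower, 0 were higher and 15 lay below 0, with a median of -1.0. PDGFRA, a receptor for platelet-derived growth factor, measured 433 CPM in bFF and 59, 67.6 and 67.5 CPM at 24, 48 and 72 h and was 6.42-fold lower (5.24 to 7.92). FAP, a serine protease of activated fibroblasts, was 4.96-fold lower (4.06 to 6.12), the collagen receptor DDR2 5.46-fold lower (3.67 to 8.45) and the mesenchymal transcription factor OSR2 6.91-fold lower (2.8 to 22.1). The surface glycoprotein THY1 was 4.3-fold lower (3.85 to 4.81), under 4-fold with TMM scaling. VIM, the intermediate filament gene of mesenchymal cells, measured 4736 CPM in bFF and 2654, 4748 and 4474 CPM at 24, 48 and 72 h, with a log2 difference of -0.08 that turned to 0.08 with TMM scaling. Of the 9 fibroblast markers at 10 CPM, COL3A1, FAP, PDGFRA and THY1 were 4-fold or more lower, all 9 were below 0 and the median was -1.14. HOX genes, which record position along the body axis, gave 1 lower gene of 9, HOXA2 with 28 reads in bFF and 3, 4 and 0 reads at 24, 48 and 72 h, and a median of -0.81. The highest of them was HOXA4 at 1.67.

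Sterol synthesis was the list in which every one of 20 genes at 10 CPM lay below 0, from -3.81 to -0.22. Of these 8 were 4-fold or more lower (6 with TMM scaling), and the median was -1.86. The summed level of the whole list was 3378 CPM in bFF and 766, 713 and 787 CPM at 24, 48 and 72 h. The sterol methyl oxidase MSMO1 measured 1324 CPM in bFF and 153, 176 and 213 CPM at 24, 48 and 72 h and was 6.2-fold lower (5.54 to 6.97). The isomerase IDI1 measured 261 CPM in bFF and 44.8, 32.3 and 32.4 CPM at 24, 48 and 72 h and was 8.05-fold lower (6.04 to 11), and squalene synthase FDFT1 was 8.13-fold lower (6.02 to 11.2). The sterol reductase TM7SF2 was 16-fold lower (8.59 to 33.8), with 10.7% of its 10 reads at 72 h estimated to be mouse. Squalene epoxidase SQLE was 5.47-fold lower (3.96 to 7.74). HMGCS1, an early enzyme of the pathway, measured 168 CPM in bFF and 19.3, 17.3 and 40.9 CPM at 24, 48 and 72 h, so it was higher at 72 h than at 24 and 48 h and was 4.12-fold lower (3.16 to 5.45). Its call was lost with TMM scaling, DESeq2 size factors, a pseudocount of 5 CPM or mouse reads subtracted. HMGCS1 had 0 mESC reads, so in the last setting only the smaller 72 h total changed its value. Of 12 fatty acid genes the acetate-activating enzyme ACSS2 (-2.65) and the desaturase FADS2 (-2.43) were 4-fold or more lower, 0 were higher and the median was -0.65, while fatty acid synthase FASN was at 0.49. ACSS2 and FADS2 reached 10 CPM in bFF alone, so for them the filter fixed the direction.

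Genes of ERK feedback, most of them switched on by ERK signalling and acting to limit it, formed the list with the lowest median of those plotted. Of 8 at 10 CPM 6 were 4-fold or more lower, 0 were higher and the median was -2.68. Among them SPRY1, SPRY2, DUSP6, DUSP10 and ETV1 reached 10 CPM in bFF alone, so for these the filter fixed the direction. The receptor signalling inhibitor SPRY1 measured 56.6 CPM in bFF and 14.2, 8.26 and 2.59 CPM at 24, 48 and 72 h and was 21.8-fold lower (8.34 to 81.1). SPRY2 was 10.2-fold lower (3.83 to 38.6), and SPRED1, of a related family, 4.68-fold lower (2.82 to 8.27). DUSP6, the phosphatase of ERK, had 32 reads in bFF and 9, 3 and 0 reads at 24, 48 and 72 h and was at least 6.24-fold lower. The phosphatase DUSP10 had 120 reads in bFF and 3, 0 and 5 reads at 24, 48 and 72 h, 14-fold lower (5.86 to 44), and the transcription factor ETV1 was 6.22-fold lower (3.02 to 14.9). For SPRY1, SPRY2 and DUSP6 the 72 h library was the lowest of the 4. The summed level of the whole list differed less, at 527 CPM in bFF and 494, 381 and 463 CPM at 24, 48 and 72 h.

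Among 15 AP-1 and immediate-early genes, which respond to serum and stress within minutes, 3 were 4-fold or more lower and 1 higher (median -0.68). FOS measured 856 CPM in bFF and 563, 245 and 195 CPM at 24, 48 and 72 h and was 4.38-fold lower (3.88 to 4.96), under 4-fold with TMM scaling. FOSB had 153 reads in bFF and 35, 9 and 3 reads at 24, 48 and 72 h, 29.8-fold lower (10.0 to 146), and estimated mouse reads would be 35.5% of the 72 h reads. EGR1, a zinc finger factor, was 4.79-fold lower (3.31 to 7.15). IER3, a regulator of cell survival, was the higher gene at 75.2 CPM in bFF and 1605, 1379.9 and 1469 CPM at 24, 48 and 72 h, a ratio of 19.5-fold (16.9 to 22.7).

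Of 8 WNT targets and ligands at 10 CPM 4 were 4-fold or more higher and 1 lower, with a median of 1.75. The 4 higher genes reached 10 CPM at 72 h and not in bFF, and the lower gene in bFF and not at 72 h. The filter thus fixed the direction of each of them, and NKD1 and WNT5A lost the call with a pseudocount of 5 CPM. TCF7, a transcription factor that is itself a target of the pathway, had 0 reads in bFF and 65, 53 and 30 reads at 24, 48 and 72 h and was at least 17.1-fold higher at 72 h, its lowest heterokaryon level. The feedback inhibitor NKD1 had 0 reads in bFF and 7, 14 and 17 reads at 24, 48 and 72 h, at least 9.68-fold higher. The ligands WNT5A and WNT5B had few reads in bFF, 5 and 3, and were 9.91-fold (3.79 to 32.8) and 10.3-fold (2.99 to 54.3) at 72 h. WNT5A reached this level at 72 h alone, with 5 reads at 24 h and 4 at 48 h. The secreted antagonist SFRP1 was the lower gene, with 111 reads in bFF and 7, 8 and 5 reads at 24, 48 and 72 h, 13-fold lower (5.4 to 40.8).

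H19, an imprinted non-coding RNA, was the gene farthest below its bFF level among those with at most 10% estimated mouse reads (chromosome 29, plus strand, start 50150775). It had 1203 reads in bFF and 233, 50 and 7 reads at 24, 48 and 72 h, and was 101-fold lower (48.7 to 251). Its level was lower in each later library. Of 14 imprinted genes H19, CDKN1C and MEST were 4-fold or more lower, 0 were higher and the median was -0.75. MEST, a hydrolase-like gene, measured 422 CPM in bFF and 80.4, 85.6 and 68.8 CPM at 24, 48 and 72 h and was 6.14-fold lower (5.03 to 7.57). IGF2, the growth factor gene that neighbours H19 and is counted here in the insulin-like growth factor list, measured 1305 CPM in bFF and 813, 293 and 136 CPM at 24, 48 and 72 h and was 9.63-fold lower (8.37 to 11.1). In that list of 12, with a median of -0.76, the binding protein IGFBP3 and the receptor IGF2R were also 4-fold or more lower. IGFBP3 measured 1138 CPM in bFF and 599, 122 and 42.2 CPM at 24, 48 and 72 h and was 27-fold lower (21.1 to 35.1). IGF2R was 4.74-fold lower (3.51 to 6.54). STC1, a secreted hormone listed with them, was the higher gene, with 0 reads in bFF and 16, 15 and 20 reads at 24, 48 and 72 h. IGFBP5 was 1.96-fold (1.26 to 3.08) its bFF level, so the binding proteins did not share a direction.

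Secreted signals of inflammation lay on both sides. Of 14 chemokines and cytokines 3 were 4-fold or more higher and 5 lower (median 0.15). IL6, an inflammatory cytokine, measured 3.42 CPM in bFF and 97.7, 79.6 and 135 CPM at 24, 48 and 72 h, a ratio of 39.5-fold (20.4 to 87.6). The neutrophil chemokines CXCL2 and CXCL3 were 16.7-fold (8.05 to 39.9) and 12.6-fold (8.31 to 19.7), and both were highest at 24 h (3.04, 502, 34.5 and 50.6 CPM for CXCL2 in bFF and at 24, 48 and 72 h). The interferon-induced chemokine CXCL10 had 407 reads in bFF and 3, 0 and 3 reads at 24, 48 and 72 h, 79.4-fold lower (27 to 387) at 72 h. CXCL9, of the same kind, had 57 reads in bFF and 0 in every heterokaryon library, and was at least 11.1-fold lower. The stromal chemokine CXCL12 was 6.75-fold lower (4.11 to 11.8) and the cytokine IL18 4.26-fold lower (3.14 to 5.88). CCL2, which attracts monocytes, had 214 reads in bFF and 2497, 522 and 12 reads at 24, 48 and 72 h, and so was above bFF at 24 and 48 h and 10.4-fold lower (5.85 to 20.5) at 72 h, when estimated mouse reads would be 13.3% of its reads. Of 14 interferon response genes 3 were 4-fold or more lower, 0 were higher and the median was -1.26. The 3 lower genes, IFIT3, IRF9 and OAS1Y, reached 10 CPM in bFF alone, so for them the filter fixed the direction. The antiviral effector IFIT3 had 130 reads in bFF and 3, 11 and 3 reads at 24, 48 and 72 h and was 25.4-fold lower (8.49 to 125), the transcription factor IRF9 was 8.86-fold lower (4.15 to 22.6) and the antiviral synthetase OAS1Y 8.78-fold lower (3.26 to 33.3).

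Keratins and epithelial genes had a median of -2.13, and 6 of 10 were 4-fold or more lower, with 0 higher. Among the lower genes KRT7, KRT17 and CLDN1 reached 10 CPM in bFF alone, so for them the filter fixed the direction. KRT18, a simple epithelial keratin, measured 315 CPM in bFF and 65.1, 57.1 and 18.8 CPM at 24, 48 and 72 h and was 16.8-fold lower (11.6 to 25.2). Its pairing partner KRT8 was 4.48-fold lower (4.09 to 4.91) and KRT19 4.3-fold lower (3.89 to 4.77). KRT7 and KRT17 had 101 and 69 reads in bFF and 0 at 72 h, and were at least 19.7-fold lower and at least 13.5-fold lower. The tight junction gene CLDN1 had 59 reads in bFF and 0 in each heterokaryon library. The desmosomal cadherin DSG2 was the highest of the list at 1.75. UPK3B, a uroplakin found in mesothelium and urothelium, was low alongside these genes, with 139 reads in bFF and 0, 2 and 0 reads at 24, 48 and 72 h, and was at least 27.1-fold lower. Whether a cell type with keratins was present among the bFF cells was not tested.

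Of 15 integrin and cadherin genes the cadherin CDH6 and the integrin ITGA3 were 4-fold or more lower, 0 were higher and the median was -0.61. CDH6 and ITGA3 reached 10 CPM in bFF alone, so for them the filter fixed the direction. CDH6 had 90 reads in bFF and 0, 0 and 0 reads at 24, 48 and 72 h. ITGA3 was 7.02-fold lower (2.57 to 26.8). The fibronectin receptor subunit ITGA5 was highest at 1.64. Of 17 annexins and S100 genes ANXA8L1 was higher (3.59), S100A13 lower (-2.18) and the median was 0.56. Contractile and tropomyosin genes had a median of 0.77 with 21 of 26 above 0, and 0 passed 4-fold (2 higher with TMM scaling). ACTB, beta actin, measured 6037 CPM in bFF and 6249, 14695 and 22196 CPM at 24, 48 and 72 h and was 3.68-fold (3.61 to 3.75) its bFF level. Its copy-rich relative ACTG1 was 3.53-fold (3.42 to 3.64) and the tropomyosin TPM4 3.04-fold (2.89 to 3.21). For all 3 of these genes the 72 h library was the highest.

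Several of the genes farthest from bFF belonged to none of the functional lists above. GZMA, a granule protease of cytotoxic lymphocytes, had 0 reads in bFF and 0, 21 and 143 reads at 24, 48 and 72 h and was at least 81.4-fold higher at 72 h (chromosome 20, minus strand, start 24033746). BLA-DQB, a class II histocompatibility gene with near-identical copies that make its reads uncertain, had 2 reads in bFF and 122, 124 and 239 reads at 24, 48 and 72 h, a ratio of 204-fold (55.9 to 1696). HBA, an alpha globin gene that also has copies, had 0 reads in bFF and 90, 89 and 75 reads at 24, 48 and 72 h and was at least 42.7-fold higher. Of the 10 blood markers HBA was the 1 that reached 10 CPM. Of the others, LAPTM5 had 4 reads at 24 h and 5 at 72 h, and CD68 and SPI1 had 2 reads in a single library each. UPP1, a uridine phosphorylase, measured 1.9 CPM in bFF and 164, 124 and 143 CPM at 24, 48 and 72 h, 75.5-fold (31.9 to 235) its bFF level. C1QTNF3, a secreted hormone-like protein, had 3 reads in bFF and 7, 52 and 113 reads at 24, 48 and 72 h and a ratio of 64.4-fold (21.5 to 317). MYF5, a transcription factor of muscle precursors, had 2 reads in bFF and 8, 17 and 60 reads at 24, 48 and 72 h, a ratio of 51.3-fold (13.6 to 433), while the cardiac actin ACTC1, also on the muscle marker list, was 10.1-fold lower (5.52 to 20.6). Among neural markers the tubulin TUBB3 was 4.93-fold (3.12 to 8.02) and nestin (NES) 2.84-fold (2.3 to 3.51) their bFF levels, and SOX10 had 0 reads throughout.

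Somatostatin (SST), a peptide hormone, had the largest difference in CPM of the 12 lowest genes, with 1811 CPM in bFF and 29.5, 43.5 and 33.1 CPM at 24, 48 and 72 h, and was 54.8-fold lower (41.6 to 73.6) at 72 h (chromosome 1, plus strand, start 80250205). NUPR1, a stress-induced chromatin protein, measured 597 CPM in bFF and 36.6, 34.5 and 20.1 CPM at 24, 48 and 72 h and was 29.7-fold lower (20.8 to 43.9). At 24 h both were already closer to their 72 h level than to bFF. ANGPTL1, a secreted angiopoietin-like protein, was 53.7-fold lower (24.5 to 147), and FAIM2, an inhibitor of FAS-induced death, had 204 reads in bFF and 9, 3 and 2 reads at 24, 48 and 72 h, 59.7-fold lower (16.3 to 496). The complement protein C4A measured 185 CPM in bFF and 53.9, 7.51 and 6.49 CPM at 24, 48 and 72 h and was 28.6-fold lower (15.4 to 59.9). The melanosome and lysosome glycoprotein GPNMB was 35.8-fold lower (20.4 to 69.6) and SCG5, a chaperone of prohormone processing, 29.5-fold lower (18 to 51.8).

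Genes set apart at 72 h from the earlier heterokaryons were sought by the ratio of the 72 h level to the higher or the lower of the 24 and 48 h levels. Of the highest by this measure, GZMA had 21 reads at 48 h and 143 at 72 h, and C1QTNF3 52 and 113. COTL1, an actin-binding protein gene, measured 15.2 CPM in bFF and 57, 58.6 and 114 CPM at 24, 48 and 72 h. RRM2 and HMGCS1 were also among them, and HMGCS1 stayed below its bFF level. The 6 lowest were H19, GPNMB, SCG5, PDGFRL, SFRP4 and ZFP36L1. SFRP4, a secreted WNT antagonist, measured 799 CPM in bFF and 257, 272 and 53.2 CPM at 24, 48 and 72 h and was 15-fold lower (12 to 19). ZFP36L1, which promotes decay of mRNAs with AU-rich elements, measured 175 CPM in bFF and 66.1, 55.6 and 17.5 CPM at 24, 48 and 72 h and was 10.0-fold lower (6.79 to 15.4). PDGFRL, a receptor-like gene, had 172 reads in bFF and 28, 16 and 5 reads at 24, 48 and 72 h. The 72 h library is a separate pool of cells, so cells sampled later and cells of another pool cannot be told apart.

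**Figure D4:**
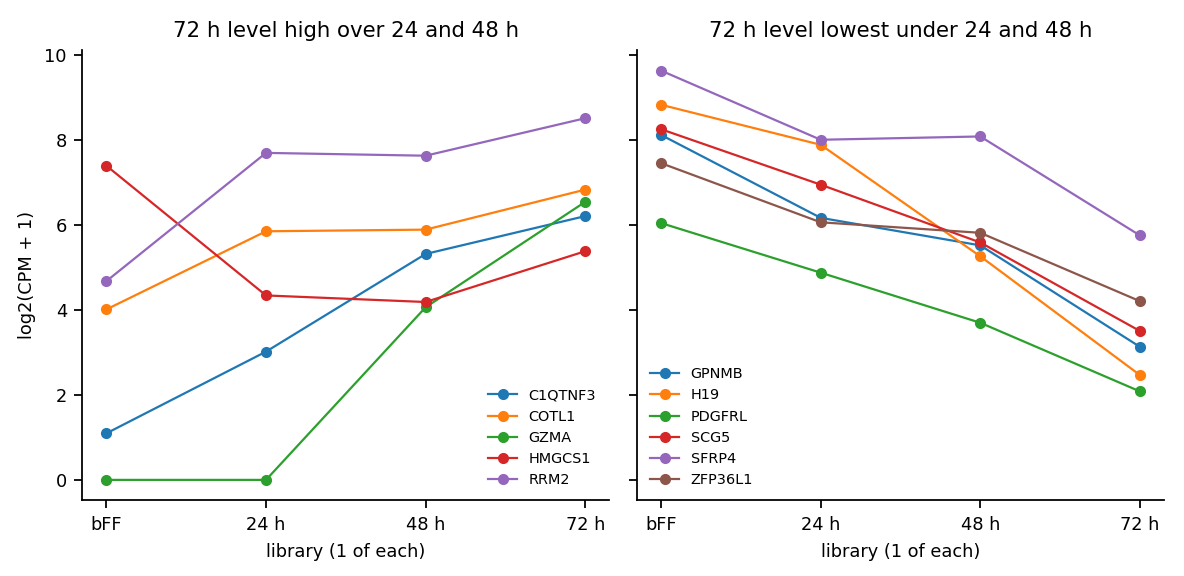
Levels as log2(CPM + 1) in the 4 libraries of 5 genes among those whose 72 h level is highest relative to both earlier heterokaryon libraries (left) and the 6 for which it is lowest (right); each point is 1 library. On the left 4 genes lie above bFF at 72 h and HMGCS1 lies below it, and on the right all 6 lie below bFF in every heterokaryon library.

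Lists of general cell machinery held few genes past 4-fold, where of all 6956 genes 2.65% were higher and 5.22% lower. Of 74 cytosolic ribosomal protein genes and 31 proteasome subunits 0 passed 4-fold, with medians of -0.27 and 0.32. Of the ribosomal protein genes 59 lay below 0 and 15 above, and of the proteasome subunits 5 lay below and 26 above. The summed ribosomal protein level was 69464 CPM in bFF and 76572, 68115 and 54740 CPM at 24, 48 and 72 h. Lysosomal genes had a median of -0.49 and 2 of 29 were 4-fold or more lower, the cathepsins CTSB and CTSK (0 with TMM scaling), while 0 were higher. Of 30 genes of the amino acid stress response 0 passed (median -0.22). Among 31 heat shock and chaperonin genes the small heat shock protein CRYAB was higher, 0 were lower and the median was 0.35. CRYAB measured 5.69 CPM in bFF and 47.8, 33 and 68.8 CPM at 24, 48 and 72 h, a ratio of 12.1-fold (7.0 to 22.3). Among 27 antioxidant and ferritin genes the peroxidase PRDX1 was 4-fold or more higher, 0 were lower and the median was 0.07. PRDX1 was 4.27-fold (4.13 to 4.42) its bFF level. Ferritin heavy chain FTH1 measured 15592 CPM in bFF and 4899, 5065 and 4267 CPM at 24, 48 and 72 h, 3.65-fold lower (3.56 to 3.75), whereas the light chain FTL was 1.07-fold (1.04 to 1.09) its bFF level. The stress sensor GADD45B was 11.9-fold (8.09 to 18.1) its bFF level.

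The core pluripotency genes POU5F1, SOX2 and NANOG were at or near the detection limit in bovine transcripts of bFF and of the 72 h library. Of 10 embryonic stem cell markers 6 were among the bovine genes listed, and 0 of these reached 10 CPM in either library. ESRRB, ZFP42, DPPA5 and UTF1 were not listed, so their levels are not known. POU5F1, which encodes OCT4, had 0 reads in bFF and 23, 3 and 6 reads at 24, 48 and 72 h. No SOX2 reads were listed in any library, and a count of 0 allows up to 2.39 CPM at 72 h (95% Poisson limit). For NANOG there were 2 reads in bFF and 0 after fusion. Of 5 genes of a wider pluripotency list at 10 CPM TFCP2L1 alone was 4-fold or more higher and 0 were lower. The median was 1.38, which was the value of CD9. Estimated mouse reads exceeded 10% of the 72 h reads in 3 of the 5 genes, KLF4, TDH and TFCP2L1. TFCP2L1 had 0 reads in bFF and 10, 18 and 18 reads at 24, 48 and 72 h, and 68.1% of its 72 h reads were estimated to be mouse. With estimated mouse reads subtracted the median of the list was -0.21. The tetraspanin CD9, known from stem cells and many other cells, measured 429 CPM in bFF and 2605, 1233 and 1119 CPM at 24, 48 and 72 h, a ratio of 2.61-fold (2.42 to 2.81). Of 10 genes of DNA methylation and demethylation GADD45B was the 1 higher gene, 0 were lower and the median was 0.17. Of 20 histone modifying enzymes the methyltransferase SETDB1 was lower (-2.24), 0 were higher and the median was -0.07, which turned to 0.17 with TMM scaling.

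Some genes past 4-fold held many reads that could be mouse by the measure of the mESC control. Estimated mouse reads exceeded 10% of the 72 h reads in 367 of the 6956 genes, among them 9 higher and 28 lower ones. In all 9 of these higher genes the share was above 50%. BAX, which promotes cell death, had 27 reads in bFF and 92, 88 and 69 reads at 24, 48 and 72 h and a share of 84.9%, YEATS2, a reader of acetylated histones, 79%, and the fibrinogen gene FGB 87.2%. ZNF266 (65.7%), SPEF1 (79.2%) and MIR1282 (110.0%) were the others of the 6 with the most reads. The estimate assumes that each mouse gene kept its mESC level, so it can exceed the reads counted. Bovine and mouse transcripts of these genes cannot be told apart here. By contrast the estimated share was 0.138% for BNIP3, 0.0486% for LDHA and 0% for PLAUR and NDUFA4L2.

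**Figure D5:**
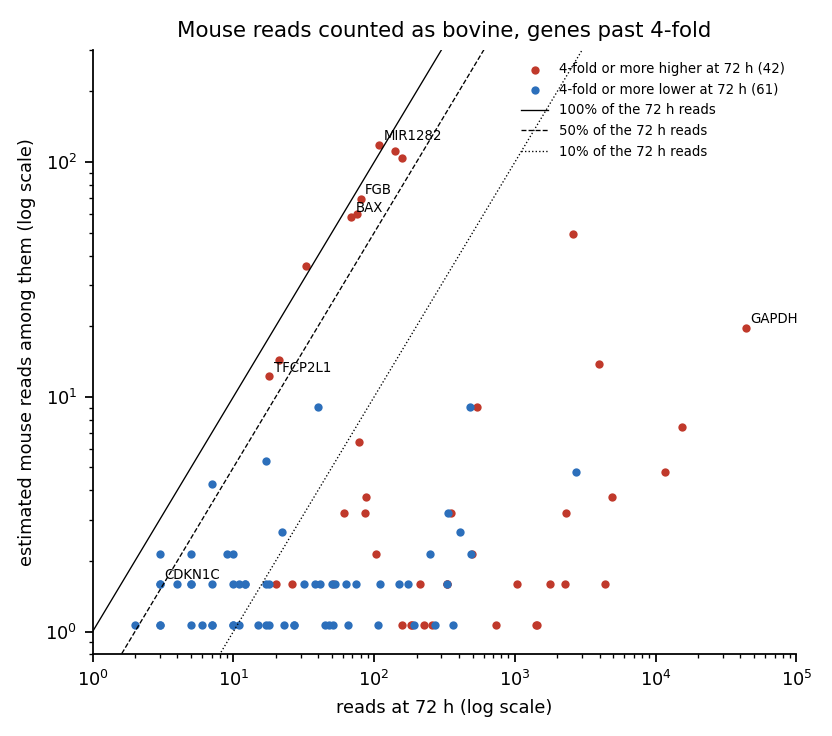
Each point is a gene past 4-fold with mESC reads in its bovine row and at least 1 read at 72 h (42 higher in red, 61 lower in blue), placed by its reads at 72 h and by the estimated number of mouse reads among them, both on log scales, with lines at 10%, 50% and all of the reads. The 9 higher genes above the 50% line include BAX (84.9%) and FGB (87.2%), while GAPDH lies far below the 10% line.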

How the data were processed

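RNA of 200 cells per library was made into cDNA with the SMART-Seq v4 kit and 14 PCR cycles, per the labels' protocols. The authors deposited whole read counts per RefSeq transcript for bovine and mouse, per the file headers, and the same values as RPM, which equalled counts scaled to the column total to within 3.6e-12 and served only as that check. The submitters' processing notes name bosTau8, GRCm38 and mm10. The aligner, counter, strand setting and species rule were not given in the sources used here. Reads of overlapping genes or of near-identical copies may thus be split wrongly. The count 1 never occurs, so a 0 may stand for 1 read.

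The 14234 bovine transcripts were summed to 13923 genes, with 23 names turned into dates restored by RefSeq number. Genes with 10 CPM in bFF or at 72 h were compared on log2(CPM + 1), with a pseudocount of 1 CPM, and called at 4-fold. Each group was 1 library, so no test was run. Levels carry exact Poisson and ratios exact conditional binomial intervals at 95%, and a count of 0 was set to a floor of 3 reads (1.14 CPM in bFF, 1.95 CPM at 72 h). Mouse reads at 72 h were estimated per gene as the mESC reads in the bovine table times the ratio of the mouse totals, 1836299 over 3446461. The procedure was tested on simulated data.

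Members and 38 gene lists with 7 marker lists were chosen with earlier results of these data known, and 4 further lists (complement, centromere, fibroblast growth factor ligands, histocompatibility genes) after their values were seen. Of 1241 listed symbols 1089 were in the table. Named genes were the 12 highest and 12 lowest at 50 CPM or more with at most 10% estimated mouse reads, up to 4 members per list with the largest difference, all markers with POU5F1, SOX2 and NANOG, the 6 most abundant genes of each library, the 6 genes with the most reads of which over 50% were estimated to be mouse, and the 6 highest and 6 lowest at 72 h against 24 and 48 h. Other list members and the genes nearest the limit were named after their values were seen, and not every gene taken by the rule is printed or plotted, and results of some genes and lists are not reported here. Alternatives were other scalings (edgeR 4.0.16 TMM and DESeq2 1.42.0 size factors, in R 4.3.3), pseudocounts, filters and fold limits, mouse reads subtracted or left out, and transcripts kept apart. Promoter motifs were not analysed here. Computation used Python 3.11.15, numpy 2.4.6, pandas 2.3.3 and scipy 1.17.1, and plots were drawn by matplotlib 3.10.9.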

Additional observations from a re-analysis of the deposited data

How the results depend on the processing

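Counts of genes 4-fold or more higher and lower (184 and 363) stayed within 1.5 times under TMM scaling (223 and 298), DESeq2 size factors (227 and 294, with higher genes 43.6% of calls), a pseudocount of 0.5 CPM (202 and 395), estimated mouse reads subtracted (180 and 366) or genes over 10% left out (175 and 335), and transcripts kept apart (190 and 368). They moved with a pseudocount of 5 CPM (108 and 192), a filter of 50 CPM (94 and 151), a limit of 2-fold (671 and 1368) and a limit of 8-fold (70 and 115), and with no filter the lower count moved (267 and 586). All 184 higher genes remained among those of TMM scaling, and 298 of the 363 lower ones. Of 235 named genes at 10 CPM, TMM scaling took the call from COL3A1, CTSB, CTSK, FGF18, FOS, HMGCS1, TGIF1 and THY1 and gave it to ACTB, FLNC and SUV39H1, and DESeq2 size factors did the same and also took KRT8. A pseudocount of 5 CPM took it from 31. With estimated mouse reads subtracted, the BAX log2 difference turned to -0.51 and the MIR1282 log2 difference to -2.57, and CTSK, FGB, HMGCS1, SPEF1, TFCP2L1 and YEATS2 were no longer past 4-fold. CTSK and HMGCS1 had 0 mESC reads, so only the smaller 72 h total changed their values. Over the scalings, pseudocounts and mouse reads subtracted, 1359 values of single genes and lists moved by no more than the half-width of their counting interval or 1.5 times, 108 moved further and 2 differences of genes past 4-fold, those of BAX and MIR1282, turned sign. A gene with 0 reads in bFF or at 72 h has an open interval, so this rule could not count it as moved further. Under a pseudocount of 5 CPM the rule counted 0 of 235 genes as moved further, though 31 lost the call. The 1359 is thus not a measure of robustness. Among values under 4-fold, TMSB4X, VIM and ZWINT and the medians of matrix proteases and histone modifying enzymes turned sign with both TMM scaling and DESeq2 size factors, and the median of the pluripotency list with mouse reads subtracted. With 1 library a side no leave-one-out value exists, and at 72 h a gene with 0 reads could lie up to 2.39 CPM. No paired analysis was possible because each group holds 1 library.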

Other observations

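Some gene groups outside the lists above stood apart, and were listed after their values had been seen, so their counts are a description. Of 10 complement components and inhibitors at 10 CPM 7 were 4-fold or more lower and 0 higher, with a median log2 difference of -3.06. Among the lower genes C3, C4A and CFB reached 10 CPM in bFF alone, so for them the filter fixed the direction. The classical pathway protease C1S measured 399.7 CPM in bFF and 142, 52.6 and 29.2 CPM at 24, 48 and 72 h and was 13.7-fold lower (10.2 to 18.9), with its partner C1R 14.2-fold lower (8.86 to 24.1) and their inhibitor SERPING1 13-fold lower (9.76 to 17.6). C3, the central component, had 52 reads in bFF and 5, 2 and 0 reads at 24, 48 and 72 h. The summed level of the listed complement genes was 1807 CPM in bFF and 983, 542 and 438 CPM at 24, 48 and 72 h. Of the fibroblast growth factor ligands 4 reached 10 CPM and were 4-fold or more lower, but FGF2, FGF10 and FGF18 reached it in bFF alone, so for these the filter fixed the direction. FGF7, which acts on epithelium, measured 591 CPM in bFF and 79.4, 76.6 and 87.6 CPM at 24, 48 and 72 h and was 6.75-fold lower (5.66 to 8.11), and FGF2, a mitogen of fibroblasts, was 9.21-fold lower (5.47 to 16.7). FGF10 had 70 reads in bFF and 0, 0 and 7 reads at 24, 48 and 72 h and FGF18 29 reads in bFF and 13, 5 and 3 reads at 24, 48 and 72 h, and FGF18 lost the call with TMM scaling.

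Of 29 centromere and kinetochore genes at 10 CPM 14 were 4-fold or more higher and 0 lower, with a median of 1.67. The microtubule-binding complex subunit SPC24 measured 28.1 CPM in bFF and 127, 366 and 323 CPM at 24, 48 and 72 h and was 11.5-fold (8.99 to 14.9) its bFF level. CENPA, the histone variant that marks centromeres, was 9.86-fold (6.24 to 16.3), and CENPH, of the inner kinetochore, 14.4-fold (8.25 to 27.1). CENPA, CENPF, NDC80, NUF2 and SPC25 are also in the mitosis list. Of 5 histocompatibility genes BLA-DQB was 4-fold or more higher and 0 lower, with the others from -1.39 to -0.22. Among genes of no list, creatine kinase B (CKB) measured 4.18 CPM in bFF and 514, 147 and 147 CPM at 24, 48 and 72 h, a ratio of 35.1-fold (19.2 to 71.3). Alkaline phosphatase ALPL, a bone enzyme that is also abundant in stem cells, had 0 reads in bFF and 3, 21 and 66 reads at 24, 48 and 72 h and was at least 37.6-fold higher. The osteopontin gene SPP1 measured 479.8 CPM in bFF and 144, 96.1 and 34.4 CPM at 24, 48 and 72 h and was 14-fold lower (10.6 to 18.7), and SERPINF1, a secreted inhibitor of blood vessel growth, 8.09-fold lower (7.38 to 8.89).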
